A study of Mus musculus with 6 samples.

Results

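The 10 genes described here encode cytosolic sensors of double-stranded RNA and the enzymes that act on it. They are the RNA helicases Ifih1 and Dhx58, the kinase gene Eif2ak2, the oligoadenylate synthetase (OAS) genes Oas1a, Oas1g, Oas2 and Oas3, the OAS-like genes Oasl1 and Oasl2, and the RNA editing gene Adar. They were found by gene symbol in the platform annotation of the value table. Of the 10 genes, 7 were named by at least 1 feature, with 10 features among 16281 in all, and Oas2, Oas3 and Oasl1 are not analysed here.

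The study used RAW 264.7 cells, a mouse macrophage line derived from a virus-induced tumour. Cells treated for 8 h with lipopolysaccharide (LPS, 100 ng/ml) together with LPS-binding protein (100 pM) were set against cells left untreated for 8 h. Both RNAs were hybridised together on 6 two-colour arrays, in 3 numbered sets of 2. In each set, 1 array carried treated RNA in the dye Cy5 and the other carried it in Cy3. LPS, from the outer membrane of Gram-negative bacteria, is the ligand of Toll-like receptor 4, to which LPS-binding protein helps to deliver it.

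Double-stranded RNA in the cytosol is a sign of viral replication. The RIG-I-like helicases bind it and signal through the adaptor MAVS to interferon genes, protein kinase R stops translation by phosphorylating the initiation factor eIF2, and OAS enzymes make oligoadenylates that switch on the nuclease RNase L. In macrophages these genes are well known as interferon-stimulated genes, which are switched on through the interferon receptor and the transcription factor ISGF3, which contains Stat2 and Irf9.

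Each value below is a log2 ratio of treated over untreated RNA for 1 feature on 1 array. A value of 1 is a 2-fold higher level in treated cells. Where Cy3 held the treated RNA, the sign of the ratio was turned. The table does not state its numerator. Cy5 was taken as the numerator, since in the labels the word control goes with Cy3 and the word test with Cy5. The direction is therefore a likely one, and every sign below rests on it. A value of exactly 0 was taken as not measured, which concerned 1328 to 2262 features per array. Turned ratios correlated across features with r of 0.705 to 0.899 between arrays of one dye orientation, and with r of 0.428 to 0.800 between arrays of opposite orientation. Features are not independent replicates in these correlations. Of 9 macrophage marker features tested, 5 were higher and 1 (Csf1r) was lower at an adjusted p under 0.05 in limma, where 17.1% of all features were higher and 15.6% lower. Of markers of other cell types, 1 of 5 T cell features (Cd4) was higher, 1 of 4 epithelial features (Epcam) was lower, and no B cell or fibroblast feature was called. Ratios carry no level, so they cannot show which cell type was present. With no intensities, precision is limited by how few arrays there were.

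Every member that could be tested was higher in treated cells. Of the 10 features, 1 was listed at 0 on all 6 arrays and 1 had too few values for the test. The other 8, from 6 genes, were tested and all 8 had an adjusted p under 0.05 with a higher level in treated cells, where 17.1% of all 14343 features tested were called higher and 15.6% lower. Over 2-fold higher and past the threshold were also all 8, against 3.07% of all features. The members were chosen with earlier results of these data known, so these shares describe the group and do not test it. Their median log2 ratio was 2.53, or 5.78-fold, against -0.01 over all features tested. Each of the 8 was above 0 on 6 of 6 arrays, as were 18.1% of the 12798 features with 6 values. The test was limma's moderated test of 3 set means against 0, with Benjamini-Hochberg adjustment over all features tested. Whether the sets came from separate cultures is not in the labels, so the p-values reflect set-to-set spread that could be technical. In RNA from whole cultures, more RNA per cell and more cells with the RNA cannot be told apart.

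**Figure D1:**
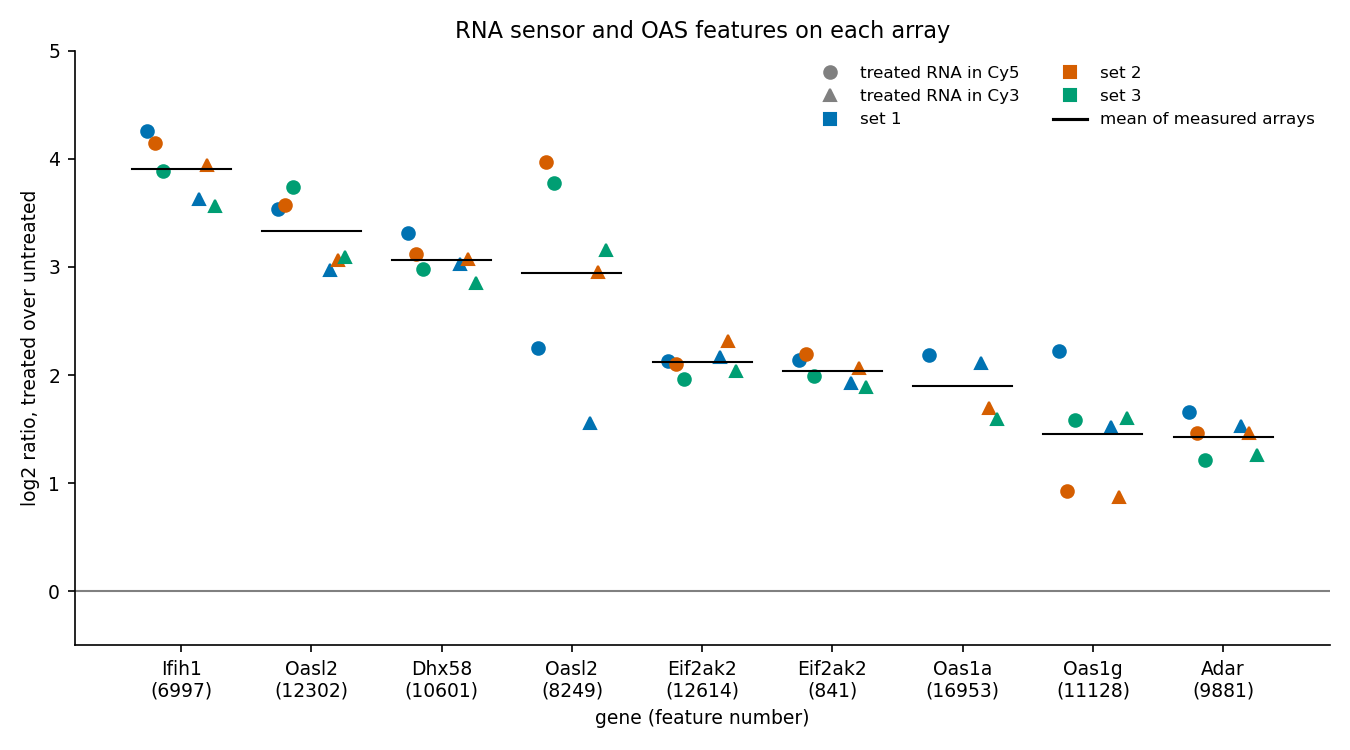
Log2 ratio of treated over untreated RNA for the 9 member features with values, 1 point per array. Circles are arrays with treated RNA in Cy5 and triangles those with treated RNA in Cy3, colours are the 3 sets, and each bar is the mean of the measured arrays. All points lie above 0. The set 1 points of Oasl2 feature 8249 lie below its others. For Oas1g the set 2 points (0.92 and 0.87) lie below the others and the set 1 point with treated RNA in Cy5 (2.23) lies above them.

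Ifih1, which encodes the helicase MDA5, the sensor of long double-stranded RNA, had the highest ratio of the members. Where Cy5 held the treated RNA its log2 ratio was 4.26, 4.14 and 3.89 in sets 1, 2 and 3, and where Cy3 held the treated RNA it was 3.62, 3.95 and 3.56. The 6 arrays ran from 3.56 to 4.26, and the lowest of them still exceeded every array of Dhx58, Eif2ak2, Oas1a, Oas1g and Adar. The mean was 3.90 ± 0.16 (SD, n = 3 sets), or 15.0-fold with a 95% interval of 13.3 to 16.9 (limma's adjusted p = 1.66e-06). It stood at rank 24 from the top among all features tested.

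The annotated start region of Ifih1 holds 1 match to the core of the interferon-stimulated response element (ISRE), the DNA motif that ISGF3 and interferon regulatory factors bind. The core was searched as GAAANNGAAA on both strands of RefSeq windows from 250 bases before to 50 bases after each start (build GRCm38.p6). The match lies at positions 33 to 42, counted from 1 at the annotated start. The 30 bases around it are shown because they carry the match, in capitals, at chr2:62646206-62646235 on the minus strand.
Ifih1: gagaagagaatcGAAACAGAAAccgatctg

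Dhx58 encodes LGP2, the third RIG-I-like helicase, which lacks the signalling domain of MDA5 and modulates its binding to RNA. Its log2 ratio was 3.31, 3.12 and 2.98 in sets 1, 2 and 3 with treated RNA in Cy5, and 3.03, 3.08 and 2.85 with treated RNA in Cy3. Both orientations overlapped, and set 3 was the lowest in each. The mean was 3.06 ± 0.13 (SD, n = 3 sets), an 8.34-fold rise with an interval of 7.49 to 9.30 (limma's adjusted p = 1.99e-06). It was below Ifih1 in every array.

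Eif2ak2 encodes protein kinase R (PKR), which binds double-stranded RNA and phosphorylates eIF2. It was read by 3 features, of which 18547 was listed at 0 on all 6 arrays. Feature 12614 had log2 ratios of 2.13, 2.10 and 1.97 in sets 1, 2 and 3 with treated RNA in Cy5, and of 2.17, 2.31 and 2.04 with treated RNA in Cy3. Feature 841 had 2.14, 2.20 and 2.00 with treated RNA in Cy5, and 1.93, 2.07 and 1.89 with treated RNA in Cy3. The features stood close together, at means of 2.12 ± 0.10 and 2.04 ± 0.09 (SD, n = 3 sets), or 4.35-fold and 4.11-fold. Their set means differed by 0.08 ± 0.03, with feature 12614 higher in each set. Limma's adjusted p was 3.99e-06 for 12614 and 4.01e-06 for 841.

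Eif2ak2 also has 1 ISRE core match, at positions 19 to 28 after its annotated start. The 30 bases around it, chr17:78882535-78882564 on the minus strand of GRCm38.p6, are shown with the match in capitals.
Eif2ak2: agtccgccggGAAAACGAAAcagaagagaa

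Oas1g and Oas1a encode OAS1 enzymes, which make the oligoadenylate messenger. Oas1g, read by feature 11128, had log2 ratios of 2.23, 0.92 and 1.59 in sets 1, 2 and 3 with treated RNA in Cy5. With treated RNA in Cy3 it had 1.52, 0.87 and 1.60. Set 2 was the lowest in both orientations, and no array fell below 0.87. The mean was 1.45 ± 0.50 (SD, n = 3 sets), or 2.74-fold with an interval of 2.04 to 3.67 (limma's adjusted p = 0.00138). Its SD over sets ranked 48 from the top among the 14343 features tested.

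Oas1a, read by feature 16953, was measured on 4 of 6 arrays. Its log2 ratio was 2.19 in set 1 with treated RNA in Cy5, and 2.11, 1.70 and 1.59 in sets 1, 2 and 3 with treated RNA in Cy3. The other two arrays with treated RNA in Cy5 listed it at exactly 0. All 4 measured arrays were above 0, with a mean of 1.90 ± 0.29 (SD, n = 4 arrays). Only set 1 had both orientations, so it had no test over set means. In limma's fit of separate arrays with a dye term, which left out the zeros, the log2 ratio was 1.99. That fit took both arrays of set 1 as separate replicates. It gave the 1 array with treated RNA in Cy5 as much weight as all those with treated RNA in Cy3 together. With zeros kept as values the mean over 3 sets was 1.26 (limma's adjusted p = 0.0229). Among the arrays with treated RNA in Cy3, Oas1a was highest in set 1 and lowest in set 3. On the same arrays Oas1g was highest in set 3 and lowest in set 2.

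Oas1a and Oas1g are close paralogs that neighbour each other in the OAS cluster of chromosome 5. The platform annotation gives their features only by accession (M33863 and X58077), so signal from one gene's RNA on the other's feature cannot be told apart from its own. Their start regions are also much alike. Over the 300-base windows, 261 bases were identical and 33 differed, 88.8% identity outside gaps. Each holds 2 overlapping ISRE core matches just upstream of the start, at -20 to -11 and -14 to -5 in Oas1a, and at -18 to -9 and -12 to -3 in Oas1g. The 120 bases upstream of each start are shown with these matches in capitals, and those of Oasl2 are shown beside them as a start region with no match. Oas1a lies at chr5:120907526-120907645 (minus strand), Oas1g at chr5:120887614-120887733 (minus strand) and Oasl2 at chr5:114896814-114896933 (plus strand).
Oas1a: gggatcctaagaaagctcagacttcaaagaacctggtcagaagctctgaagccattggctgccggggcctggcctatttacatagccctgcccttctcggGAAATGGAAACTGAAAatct
Oas1g: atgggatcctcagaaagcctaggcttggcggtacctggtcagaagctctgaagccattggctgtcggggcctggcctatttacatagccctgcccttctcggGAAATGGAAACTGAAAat
Oasl2: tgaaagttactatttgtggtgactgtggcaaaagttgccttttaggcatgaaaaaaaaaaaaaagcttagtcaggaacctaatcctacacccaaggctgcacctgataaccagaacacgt

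Oasl2 encodes an OAS-like protein that carries ubiquitin-like domains behind its OAS domain. It was read by 2 features that the annotation gives the same accession, AF068835. Feature 12302 had log2 ratios of 3.54, 3.58 and 3.74 in sets 1, 2 and 3 with treated RNA in Cy5, and of 2.97, 3.06 and 3.09 with treated RNA in Cy3. Feature 8249 had 2.25, 3.97 and 3.78 with treated RNA in Cy5, and 1.56, 2.95 and 3.16 with treated RNA in Cy3. In sets 2 and 3 the features stood close together, while in set 1 feature 8249 was lower on both arrays. The set means of 12302 exceeded those of 8249 by 1.35 in set 1, against differences of -0.14 and -0.05 in sets 2 and 3.

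Over the 3 sets feature 12302 averaged 3.33 ± 0.08 (SD), or 10.1-fold with an interval of 9.18 to 11.0, and feature 8249 averaged 2.94 ± 0.90, or 7.70-fold with an interval of 4.60 to 12.9. Limma's adjusted p was 1.66e-06 and 0.000764. Without set 1, feature 8249 had a log2 ratio of 3.46. Its SD over sets was the one at rank 3 among all features tested, whereas that of 12302 was at rank 7778. The annotation does not give the probe sequences, and what set feature 8249 apart in set 1 was not tested.

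**Figure D2:**
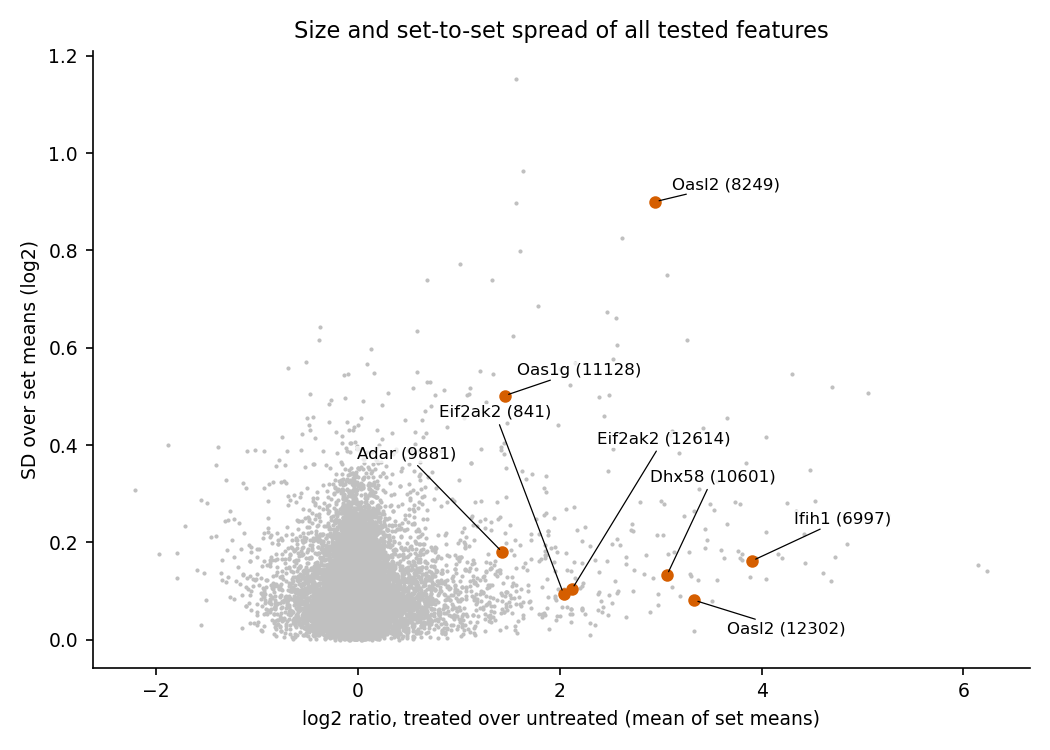
Mean log2 ratio of treated over untreated RNA on the horizontal axis and SD over set means on the vertical axis for the 14343 features tested (grey), with the 8 tested member features in orange. Members lie between 1.43 and 3.90 on the horizontal axis. Oasl2 feature 8249 (SD 0.90) and Oas1g (SD 0.50) stand above the other members, which have SDs up to 0.18.

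Adar encodes ADAR1, which edits adenosine to inosine in double-stranded RNA and so marks the cell's own transcripts. Its log2 ratio was 1.66, 1.47 and 1.22 in sets 1, 2 and 3 with treated RNA in Cy5, and 1.52, 1.47 and 1.26 with treated RNA in Cy3. Both orientations gave nearly the same values, and set 3 was the lowest in each. The mean was 1.43 ± 0.18 (SD, n = 3 sets), or 2.70-fold with an interval of 2.37 to 3.07 (limma's adjusted p = 5.23e-05). This was the smallest ratio of the 8 tested features, at rank 265 of all features.

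In descending order the tested features were Ifih1, Oasl2 (12302), Dhx58, Oasl2 (8249), Eif2ak2 (12614), Eif2ak2 (841), Oas1g and Adar. This is an order of ratios, not of RNA levels. Ifih1 exceeded Oasl2 feature 12302 by 0.57 ± 0.23 and in all 3 sets. The set means of Oasl2 feature 12302 exceeded those of Dhx58 by 0.27 ± 0.21, also in 3 of 3 sets, but not on every array. With treated RNA in Cy5 the means of feature 12302 and Dhx58 were 3.62 and 3.14, and with treated RNA in Cy3 they were 3.04 and 2.98. In Cy3, feature 12302 was below Dhx58 in set 1 (2.97 against 3.03) and set 2 (3.06 against 3.08). Dhx58 exceeded Oasl2 feature 8249 in 1 set, with a mean difference of 0.12 ± 1.00, so these neighbours did not differ beyond their spread. Feature 8249 exceeded Eif2ak2 feature 12614 in 2 of 3 sets (0.82 ± 0.93), which is also within the spread. Eif2ak2 feature 841 exceeded Oas1g in 3 of 3 sets, by 0.16, 1.24 and 0.35, with a mean difference of 0.58 ± 0.57. Oas1g and Adar differed by 0.02 ± 0.51, with Oas1g higher in 2 sets, and could not be ordered.

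The ratios of most members were somewhat larger where treated RNA carried Cy5. The difference between orientations (treated in Cy5 minus treated in Cy3) was positive for 7 of 8 features, with a median of 0.20 against 0.003 over all features tested. It was 0.78 for Oasl2 feature 8249 (means of 3.34 and 2.55) and 0.57 for feature 12302 (3.62 and 3.04). Ifih1 followed at 0.39 (4.10 and 3.71), and the remaining tested features lay between -0.11 for Eif2ak2 feature 12614 and 0.25 for Oas1g. In limma's test of the set differences 0 of the 8 had an adjusted p under 0.05, where 0.00697% of all features did. At an unadjusted p under 0.05 the counts were 3 of 8 members and 3788 of 14343 features (26.4%). In limma's fit of separate arrays with a dye term 1 member passed, Oasl2 feature 12302 (adjusted p = 0.0312). Larger ratios in Cy5 were common among all strongly raised features. Of 153 features with a log2 ratio over 2, 130 had a positive difference with a median of 0.31, and the 6 such member features had a median of 0.27. Every member with a value rose in each orientation taken alone, except that Oas1a, with 1 measured array in that orientation, was not tested with treated RNA in Cy5 alone.

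Of the 7 measured genes, 6 had a RefSeq start window and Dhx58 is named only. ISRE core matches were found in 4 of 6 (Ifih1, Eif2ak2, Oas1a and Oas1g), against 3.44% of all 32851 windows and 4.04% of the 8027 array genes with a window. Among the 246 genes with a feature called over 2-fold higher, 16.7% held a match. The genes with a match spanned mean log2 ratios from 1.45 for Oas1g to 3.90 for Ifih1. Oasl2 and Adar, with no match in these windows, stood at 3.33 (feature 12302) and 1.43. A gamma-activated site, searched as TTCNNNGAA, was matched in Oas1a at -98 to -90, in Eif2ak2 at -178 to -170 and in 1 of 3 windows of Adar at 23 to 31. It was matched in 8.30% of all windows, 8.66% of the array genes and 12.6% of the genes over 2-fold higher. An NF-kappaB site, searched as GGGNNTTTCC on both strands, was matched in 0 of 6. It was matched in 1.63% of all windows, 1.94% of the array genes and 5.28% of the genes over 2-fold higher. At such low shares, 0 of 6 does not set the members apart. A match is a description of letters and not of binding.

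The genes whose ratios were most like the members' were found by the root mean square difference over the 6 arrays from the median of the 8 member features measured on all arrays. That median ran from 2.05 to 2.66 across the arrays. Nearest was Trex1, the exonuclease that degrades cytosolic DNA, with a difference of 0.18 and a mean log2 ratio of 2.38. It was followed by the MAP kinase phosphatase gene Dusp2 (0.20), the interferon-inducible GTPase gene Ifi47 (0.22), Tor3a (0.22) and Daxx (0.23), whose means lay between 2.43 and 2.58. Likeness over 6 arrays of 1 comparison is mostly likeness in size.

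Features of related genes, in 7 lists of RNA sensors and of signalling genes around them, were more often higher than lower in treated cells. Of 74 symbols in 7 lists, 41 genes were tested through 53 features. Higher in treated cells were 26 features of 22 genes, and lower were 6 features of 5 genes, against 17.1% and 15.6% of all features, with a median log2 ratio of 0.17 against -0.01. The share lower was thus no larger than that of all features. The lists were chosen with earlier results of these data known, so their shares describe them and do not test them. Without set 3 the counts were 22 higher and 3 lower. No gene had features called in both directions. Downstream of MAVS 8 of 12 features were higher and 0 lower. Of the eIF2 kinase pathway 5 of 7 were higher and 0 lower. Of the interferon receptor and ISGF3 genes 6 of 10 were higher and 2 lower. The list of RIG-I-like receptors and cofactors had 4 of 15 higher and 3 lower, so the excess of rises does not describe that list.

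Around the RIG-I-like receptors, 4 of 15 features rose and 3 fell, with a median of 0.06, counts near the shares of all features (17.1% higher and 15.6% lower) that say nothing about this list as a group. No feature of the RIG-I gene itself was among those tested. Zc3hav1, the zinc finger antiviral protein that binds CpG-rich viral RNA, rose on its 2 features by 1.32 ± 0.15 and 0.67 ± 0.18 (SD, n = 3 sets). Prkra, which encodes the PKR activator PACT, fell on feature 6775, to a log2 ratio of -0.52 ± 0.09 (limma's adjusted p = 0.000955), while its feature 18512 stood at -0.03. Ddx21, a nucleolar helicase, stood at -0.30 ± 0.09 (adjusted p = 0.0080), and at an adjusted p of 0.0521 without set 3. Downstream of the adaptor MAVS, 8 of 12 features rose and 0 fell, with a median of 0.67, and the gene of MAVS itself was not tested. Irf7, the interferon regulatory factor that amplifies interferon alpha, rose by 2.71 ± 0.23, or 6.54-fold, and the kinase gene Tbk1 rose on both features, by 0.72 and 0.69. Isg15, a ubiquitin-like modifier, rose by 4.25 ± 0.28 on feature 164, and its other feature had a value on 1 array only.

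Among the eIF2 kinases and their pathway, 5 of 7 features rose and 0 fell, against 17.1% and 15.6% of all features, with a median of 0.27. Both features of Eif2ak4, the amino acid sensor GCN2, stood at -0.14 and -0.16 and did not pass, and the endoplasmic reticulum kinase gene Eif2ak3 had too few values. Ppp1r15a, which directs the phosphatase that reverses eIF2 phosphorylation, rose by 0.94 ± 0.03 (SD, n = 2 sets), and Atf4, the transcription factor translated under eIF2 phosphorylation, by 0.62 ± 0.05 (n = 3 sets). Of the other OAS and RNase L genes only Abce1, which encodes the RNase L inhibitor, was tested. Its 2 features stood at 0.00 and -0.05 and did not pass (limma, smallest adjusted p = 0.620). Feature 12242, at -0.05, rested on 2 sets, since set 2 had no value with treated RNA in Cy5. With treated RNA in Cy5 alone, in sets 1 and 3, it stood at -0.38 and passed (limma's adjusted p = 0.0336). With treated RNA in Cy3 alone it stood at 0.08, from 0.23, -0.35 and 0.34 in sets 1, 2 and 3. The orientations thus cover different sets.

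In the list of ADAR relatives and Z-nucleic acid sensing, 2 of 6 features rose and 1 fell, with a median of 0.04, too few to set apart from the shares of all features. Zbp1, the sensor of Z-form nucleic acid, rose by 3.60 ± 0.18, or 12.1-fold, and Mlkl, the effector of necroptosis, by 2.34 ± 0.03, or 5.08-fold. Ripk3, the kinase between them, stood at 0.07 ± 0.02 and did not pass. Adarb1, the gene of the editing enzyme ADAR2, stood at -0.33 ± 0.16, against 1.43 ± 0.18 for Adar (limma's adjusted p = 0.0159 for Adarb1, and 0.0915 without set 3).

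Tlr3, the endosomal receptor for double-stranded RNA, was the 1 gene of its list that was tested and rose by 3.18 ± 0.38. Of the interferon receptor and ISGF3 genes, 6 of 10 features rose and 2 fell, against 17.1% and 15.6% of all features, with a median of 0.59. The falls, both of Ifnar2, were too few to set apart from the share of all features. Stat2 rose by 2.65 ± 0.05, or 6.29-fold, its partner Irf9 by 0.99 ± 0.20, and Irf1 by 1.92 ± 0.19. The receptor gene Ifnar2 was lower on both features (-0.30 ± 0.04 and -0.32 ± 0.07, limma's adjusted p = 0.00431 for each), and Ifnar1 stood at 0.12 and 0.02 and did not pass. With treated RNA in Cy3 alone, neither Ifnar2 feature passed (adjusted p of 0.0504 and 0.0676).

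**Figure D3:**
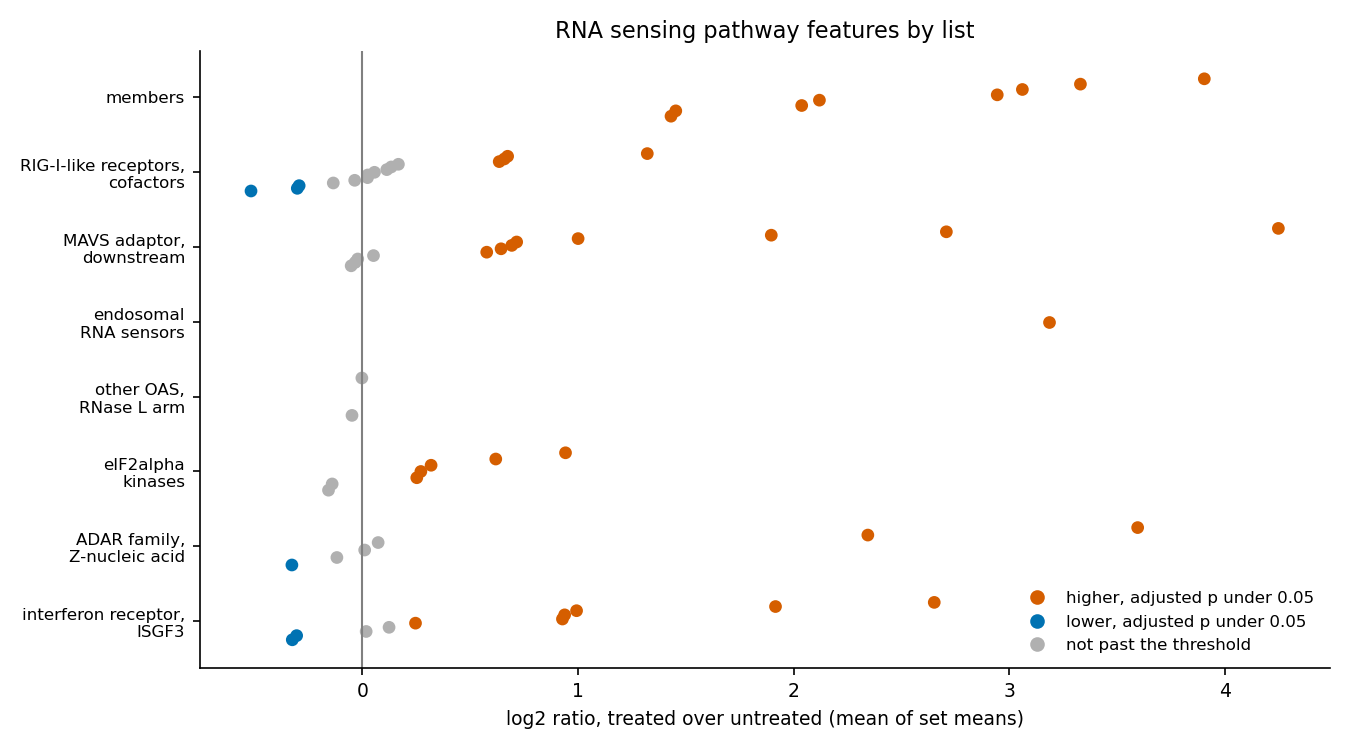
Mean log2 ratio of treated over untreated RNA for each tested feature, with the 8 member features in the top row and 7 lists of related genes under it. Orange features were higher and blue ones lower at an adjusted p under 0.05, and grey ones did not pass. Falls reached -0.52 at most, while rises outside the members reached 4.25.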

How the data were processed

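The authors deposited 1 log2 ratio per feature and array for 6 two-colour arrays. Base 2 was inferred from the largest value, 6.643856, which is log2 of 100. Scanner software, background correction, dye normalization and ratio direction: none of these is given in the sources used here, and no intensities were used, so dim features could not be filtered. Before any turning, and with zeros kept as values, arrays that differed in dye orientation had r of -0.768 to -0.404. Ratios with treated RNA in Cy3 therefore had their sign turned.

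The platform annotation gave 1 gene symbol to 13738 of 16281 features, several to 52 and no symbol to 2491. Values of exactly 0 were taken as missing, and 969 features were at 0 on all arrays. Both arrays of a set were averaged where both had a value, and features with 2 or 3 such sets were tested against 0 in R 4.3.3 with limma 3.58.1 (lmFit, eBayes). P-values were adjusted by Benjamini-Hochberg over all features tested, at a threshold of 0.05. The difference between both arrays of a set was tested likewise. The labels give each set number once per orientation and do not say whether both arrays carried the same extracts, so a set counted as 1 replicate. The procedure was tested on simulated data. Start windows came from RefSeq, with alignment in Biopython 1.88.

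All members are given. Each list was to contribute up to 2 rises and 2 falls, the largest that passed, or else its smallest p. Tbk1, Irf9, Ifnar1, Ripk3, Eif2ak3, Eif2ak4, the second features of genes, Csf1r, Cd4 and Epcam were added after their values were seen. The members and lists were chosen with earlier results of these data known.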

Additional observations from a re-analysis of the deposited data

How the results depend on the processing

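All 8 tested member features stayed higher in treated cells and past the threshold under each of the 14 alternatives that could test them, with adjusted p of at most 0.0286 (limma, Oas1g). The count of members called was 9 where Oas1a could also be tested, with zeros kept, with separate arrays and with treated RNA in Cy3 alone, 6 genes with features averaged per gene, and 8 without any 1 set. Against a change of 1.5-fold, 8 members, 14 higher and 0 lower features of the related lists and 649 of all features passed, fewer by the test's construction than the 4690 of all features against no change. With treated RNA in Cy3 alone 1 list feature was lower. Leaving out 1 set gave 22 to 25 higher and 3 to 7 lower list features, and 2956 to 4822 of all features, each lowest without set 3. Over single member and list features, 388 values kept their direction and side of the threshold, 14 fell below it, 2 came to pass it and 4 turned sign. The cause of these shifts was not tested. With 6 arrays and a dye term but no replicate block, 1 member differed between orientations, against 0 in the reported fit. With the set number as replicate block, 8 members were called, 0 differed between orientations, and 4823 of all features passed. Same-numbered arrays deviated from their orientation's mean together as deposited with r of 0.256, 0.212 and 0.0999 in sets 1, 2 and 3, and in the opposite sense once turned. Of the 6 arrays, 5 correlated best with their own number in the opposite orientation, in these deviations as deposited. What the arrays of a set had in common was not tested. The orientation difference turned sign after quantile normalization for Ifih1 (-0.31) and Dhx58 (-0.15), and for Adar without set 1, with a range of -0.0206 to 0.0652 without any 1 set. The ratio of Abce1 feature 12242 was 0.0759 with treated RNA in Cy3 alone. It was -0.383 with treated RNA in Cy5 alone, where set 2 had no value and it passed (limma, adjusted p = 0.0336).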
